A study of Homo sapiens with 45 samples.

Results

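The H3K9 methyltransferases SUV39H1, SUV39H2, SETDB1, EHMT1 and EHMT2, the SETDB1 partners ATF7IP and TRIM28, and the HP1 proteins CBX1, CBX3 and CBX5 form a set of 10 genes, taken by symbol from 28278 gene names in the count table. All 10 symbols are listed in every library. A filter on low counts left 9 for testing after depletion of HNRNPK, and the one removed was EHMT2, whose counts were near 0 in all 8 libraries of that comparison.

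Methylation of lysine 9 of histone H3 marks silent chromatin. EHMT1 and EHMT2 (GLP and G9a) work as a heterodimer and make most H3K9me1 and H3K9me2 in euchromatin. SUV39H1 and SUV39H2 make H3K9me3, above all at repeats near centromeres. SETDB1 makes H3K9me3 at retroelements and zinc finger gene clusters, where TRIM28 (KAP1) recruits it through KRAB zinc finger proteins and ATF7IP keeps it nuclear and stable. HP1 beta, gamma and alpha, the products of CBX1, CBX3 and CBX5, bind methylated H3K9 through a chromodomain.

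The cells were HCT116, an established human colon cancer line, transfected with 25 nM siRNA and collected after 72 hours. RNA came from 4 libraries of cells given the nontargeting siRNA siNTC5 and 4 of cells given HNRNPK siRNA. In each group replicates 1 and 2 were made with the TruSeq stranded mRNA kit and replicates 3 and 4 with the Stranded mRNA Ligation kit. Cells given nontargeting siRNA also gave 2 libraries named Scramble, which were made with TruSeq after purification with another RNA kit and came as separate count tables. Chromatin was available as 7 lists of called domains: H3K9me3, H3K27me3 and lamin B1 in control and HNRNPK siRNA cells, and H3K9me2 in control cells alone, so H3K9me2 after depletion was not analysed here. Nothing in the labels says that libraries came from separate cultures, so p-values measure the spread between these libraries.

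Total counts ran from 12107280 to 23633851 in the 8 libraries and were 59209169 and 55007171 in the Scramble libraries. All 5 epithelial markers (EPCAM, KRT8, KRT18, KRT19, CDH1) were present. Their summed level ran from 2687 to 3116 CPM (counts divided by each library's TMM-scaled size) in siNTC5, from 4397 to 5388 in HNRNPK siRNA and from 4140 to 4244 in Scramble libraries. Within that sum KRT19 fell (log2 change -1.27 between HNRNPK siRNA and siNTC5), while KRT8, KRT18, EPCAM and CDH1 rose by 0.66 to 1.41. None of the 4 leukocyte markers reached 1 CPM in any group. Of 4 fibroblast markers, COL1A1 was present, and the summed level of the 4 was 43.5 to 72.8 CPM in siNTC5, 74.8 to 121 in HNRNPK siRNA and 31.5 to 35.0 in Scramble. Of 3 endothelial markers VWF reached 1 CPM, and their sum was 0.61 to 1.0 CPM in siNTC5, 1.47 to 3.29 in HNRNPK siRNA and 1.26 to 1.56 in Scramble. COL1A1 and VWF rose after depletion, by 0.69 and 1.49 on the log2 scale. The part of these markers in the results was not tested, and in bulk RNA fewer cells of a type and less RNA per cell cannot be told apart. HNRNPK itself, an RNA-binding protein, stood at 934, 967, 822 and 814 CPM in siNTC5 replicates 1 to 4 and at 250.3, 223, 157 and 164 CPM in HNRNPK siRNA replicates 1 to 4. Its log2 change was -2.17 ± 0.06 (SE; edgeR adjusted p 7.29e-15), and the groups did not overlap.

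The promoters of the 4 members with the largest tested change are shown first, with that of HNRNPA2B1, which starts 697 bases from CBX3 in the opposite direction. Each sequence holds the 250 bases before the start given by RefSeq (GRCh38.p14), 5′ to 3′ on the strand of the gene. ATF7IP has 6 promoter entries, of which only that at the RefSeq gene start is shown. Which start these cells use was not tested. Capitals mark matches on either strand to CCAAT (the box bound by NF-Y), GGGCGG (the GC box), CCGGAA (the core of ETS sites) and CCCTCCC (the repeat of the CT element that HNRNPK binds in MYC).
ATF7IP, chr12:14365432-14365681, plus strand: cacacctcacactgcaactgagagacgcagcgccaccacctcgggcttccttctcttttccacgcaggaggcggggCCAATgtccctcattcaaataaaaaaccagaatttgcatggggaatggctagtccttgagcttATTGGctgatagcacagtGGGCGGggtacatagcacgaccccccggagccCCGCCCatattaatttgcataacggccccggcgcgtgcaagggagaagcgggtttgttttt
EHMT1, chr9:137618755-137619004, plus strand: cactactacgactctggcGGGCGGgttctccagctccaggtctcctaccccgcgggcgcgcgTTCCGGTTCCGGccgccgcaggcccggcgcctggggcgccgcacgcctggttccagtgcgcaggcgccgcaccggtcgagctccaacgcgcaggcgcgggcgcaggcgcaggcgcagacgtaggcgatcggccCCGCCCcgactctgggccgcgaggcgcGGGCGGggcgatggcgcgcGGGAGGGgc
SUV39H2, chr10:14878616-14878865, plus strand: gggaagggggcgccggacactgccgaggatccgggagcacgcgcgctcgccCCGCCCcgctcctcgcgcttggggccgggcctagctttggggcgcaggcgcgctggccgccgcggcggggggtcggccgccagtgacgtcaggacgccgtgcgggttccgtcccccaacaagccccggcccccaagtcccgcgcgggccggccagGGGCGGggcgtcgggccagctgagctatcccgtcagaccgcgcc
CBX3, chr7:26201193-26201442, plus strand: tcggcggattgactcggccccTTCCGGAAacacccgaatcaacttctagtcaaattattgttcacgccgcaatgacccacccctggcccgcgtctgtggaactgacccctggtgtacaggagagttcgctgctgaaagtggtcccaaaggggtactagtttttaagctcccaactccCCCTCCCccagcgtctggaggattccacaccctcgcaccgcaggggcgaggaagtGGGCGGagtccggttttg
HNRNPA2B1, chr7:26200747-26200996, minus strand: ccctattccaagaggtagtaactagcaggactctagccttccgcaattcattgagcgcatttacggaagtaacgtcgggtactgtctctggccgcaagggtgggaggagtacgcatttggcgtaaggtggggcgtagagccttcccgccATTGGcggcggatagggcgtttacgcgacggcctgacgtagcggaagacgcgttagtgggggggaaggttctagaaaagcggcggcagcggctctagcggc

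The GC box matched in all 4 member promoters, with 2 matches in ATF7IP, 3 in EHMT1, 2 in SUV39H2 and 1 in CBX3, and 42.6% of 35116 RefSeq promoters of the same length hold it. CCCTCCC matched once each in EHMT1 and CBX3, against 24.7% of all promoters. CCGGAA matched in EHMT1, in tandem, and in CBX3, where its matches on the opposite strands overlap (14.5% of all promoters). CCAAT matched in ATF7IP and HNRNPA2B1 (32.0%). G and C made up 78.8% of the EHMT1 window, 79.6% of that of SUV39H2, 58.8% of that of CBX3 and 55.6% of that of ATF7IP. A match describes these letters and is not evidence of binding.

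The comparison of HNRNPK siRNA with siNTC5 asked how transcripts of the H3K9 writers and readers differ after depletion. ATF7IP, CBX3 and CBX5 rose, EHMT1, SUV39H2 and CBX1 fell, and SUV39H1, SETDB1 and TRIM28 did not pass at an adjusted p under 0.05. In all, 6 of 9 tested members passed, 3 in each direction, where 71.5% of all 13933 tested genes passed (35.5% higher and 36.1% lower). The members' median absolute log2 change was 0.15, against 0.41 over all tested genes. None of the members reached an absolute log2 change of 1. The CPM of the groups did not overlap for 3 members, ATF7IP, EHMT1 and CBX5; this held for 56.5% of all tested genes.

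**Figure D1:**
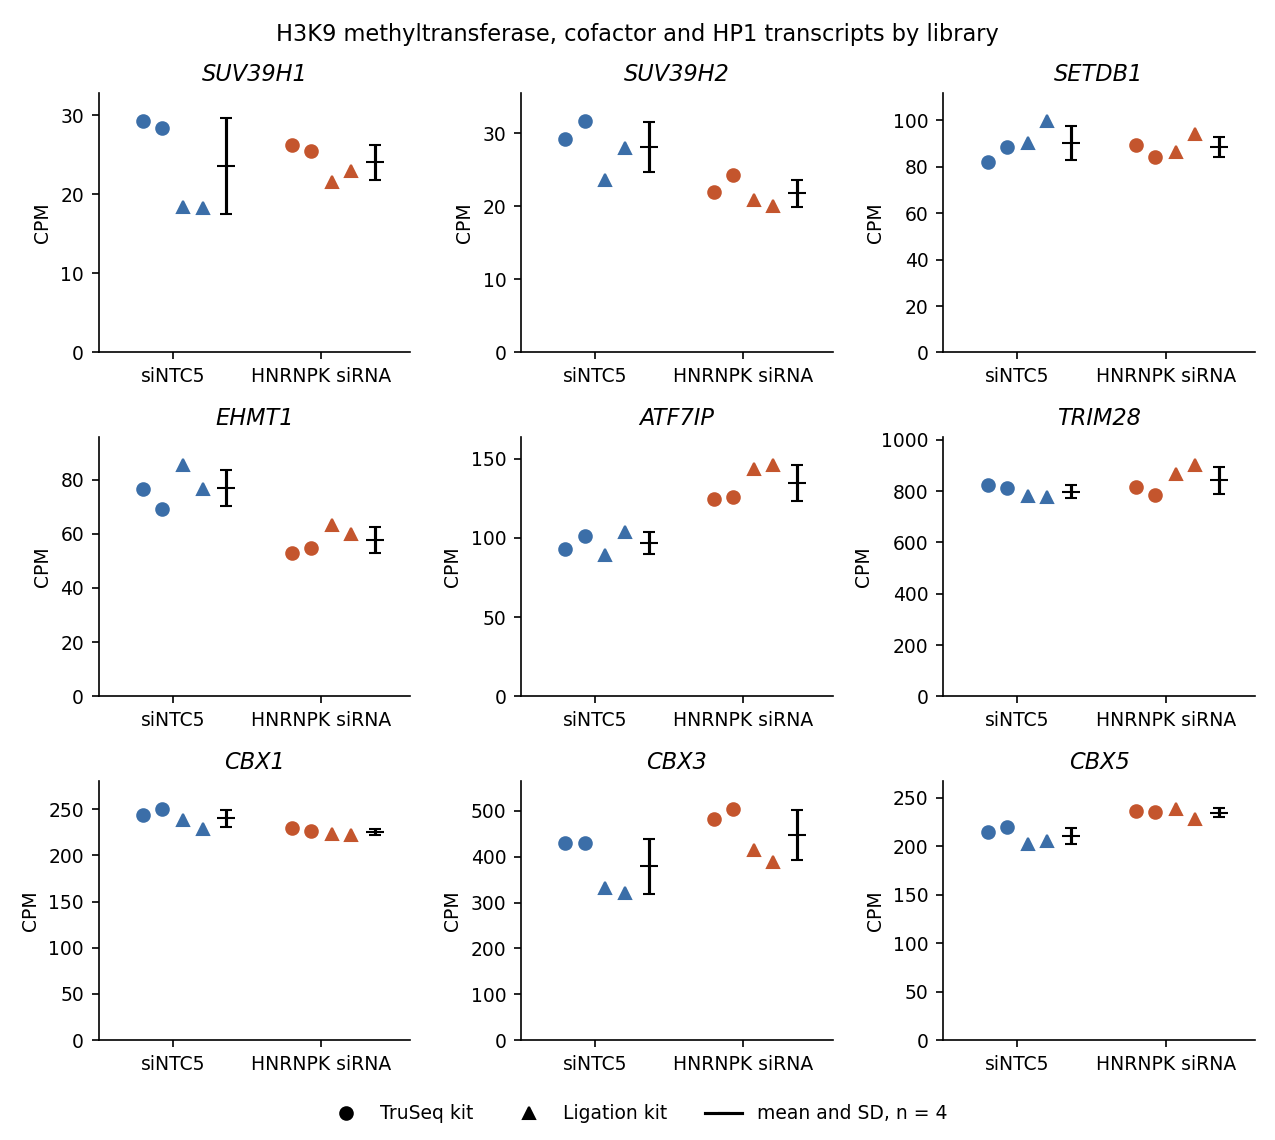
Normalised level (CPM, axis from 0) of the 9 tested members in each library, with circles for the TruSeq kit and triangles for the Ligation kit; black bars give the mean and SD of 4 libraries. ATF7IP lies higher and EHMT1 lower in every HNRNPK siRNA library, and SUV39H1 and CBX3 differ between the kits within the siNTC5 group.

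Among the writers of H3K9me1 and H3K9me2, EHMT1 (chromosome 9, 137619005 to 137836127 in GRCh38) stood at 76.4, 69.1, 85.3 and 76.4 CPM in siNTC5 replicates 1 to 4. In HNRNPK siRNA replicates 1 to 4 it was 52.9, 54.7, 63.4 and 59.9 CPM. Every depleted library lay below every siNTC5 library. The log2 change was -0.41 ± 0.06 (SE; edgeR adjusted p 3.16e-06), and the call held within the TruSeq libraries (-0.43) and within the Ligation libraries (-0.40). EHMT1 passed in the same direction in all 21 alternative analyses of this comparison. In RefSeq 4 genes overlap it (LOC100418938, LOC124902319, LOC651337 and SETP5). Without the strand setting of the counts, reads from these overlaps cannot be told apart.

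EHMT2 (chromosome 6, 31879759 to 31897698), the catalytic partner of EHMT1, could not be compared. Its raw counts were 1, 5, 2 and 0 in siNTC5 replicates 1 to 4 and 4, 6, 3 and 3 in HNRNPK siRNA replicates 1 to 4. In the Scramble libraries they were 5911 and 5386, or 118 and 117 CPM on a scale common to the 10 libraries. The same gap was seen for neighbouring genes: of 73 gene names within 2 Mb of EHMT2 with over 10 CPM in both Scramble libraries, 40 (54.8%) had under 1 CPM in all 8 other libraries. Elsewhere, 266 of 9272 such names had under 1 CPM in all 8 libraries, and 275 (3.0%) had it in all 4 siNTC5 libraries. The 40 names include RPS18, a protein of every ribosome, which had at most 0.669 CPM in the 8 libraries and 1807 and 1861 CPM in the Scramble libraries. The near-zero counts of EHMT2 thus stand beside near-zero counts of a gene that every cell uses, and no statement on EHMT2 expression is made from them. This window was chosen after the EHMT2 counts were seen. The submitters' processing notes name hg38 for the 8 libraries and both hg19 and hg38 for the Scramble libraries; the part of this difference in the result was not tested.

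**Figure D2:**
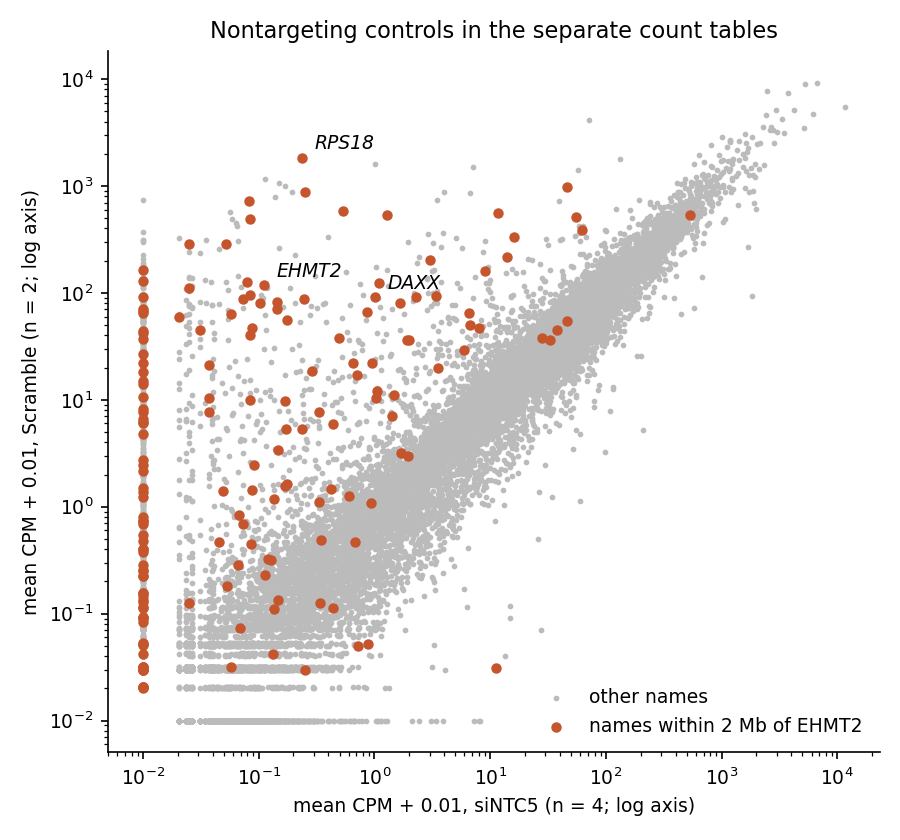
Mean CPM plus 0.01 (log axes) of each gene name shared by the count tables, in 4 siNTC5 libraries (horizontal) and 2 Scramble libraries (vertical), with names within 2 Mb of EHMT2 in orange. EHMT2, with 118 and 117 CPM in the Scramble libraries, and RPS18 lie far left of the diagonal that most other names follow.

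Of the SUV39 pair, SUV39H2 (chromosome 10, 14878866 to 14904315) fell against siNTC5. It stood at 29.2, 31.6, 23.6 and 28.0 CPM in siNTC5 replicates 1 to 4 and at 21.9, 24.2, 20.8 and 20.0 CPM in HNRNPK siRNA replicates 1 to 4. The highest depleted library lay above the lowest siNTC5 library, which came from the other kit, and within each kit the groups did not overlap. Its log2 change was -0.37 ± 0.08 (SE; edgeR adjusted p 0.000339). The call was lost with the Scramble libraries added as controls (-0.25, adjusted p 0.123) and against them alone (0.04, adjusted p 0.715); over 21 alternatives the adjusted p ran from 4.85e-06 to 0.715. SUV39H2 overlaps DCLRE1C in RefSeq, and without the strand setting of the counts reads from the overlap cannot be told apart.

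SUV39H1 (chromosome X, 48695554 to 48709016) stood at 29.2, 28.3, 18.4 and 18.2 CPM in siNTC5 replicates 1 to 4 and at 26.2, 25.5, 21.5 and 22.9 CPM in HNRNPK siRNA replicates 1 to 4. Its log2 change over both kits was 0.04 ± 0.09 (SE; edgeR adjusted p 0.661). The TruSeq libraries went down and the Ligation libraries up, with log2 changes of -0.15 (adjusted p 0.254) and 0.27 (adjusted p 0.0212). The kits themselves differed for this gene, by a log2 difference of -0.45 ± 0.09 (SE; edgeR adjusted p 0.000978) for Ligation against TruSeq with treatment in the model; 28.5% of all tested genes passed that kit comparison.

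SETDB1 (chromosome 1, 150926263 to 150964737) stood at 82.1, 88.3, 90.4 and 99.6 CPM in siNTC5 and at 89.2, 84.3, 86.2 and 94.2 CPM in HNRNPK siRNA libraries. The groups overlapped, and the log2 change was -0.03 ± 0.05 (SE; edgeR adjusted p 0.692).

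Its partner ATF7IP (chromosome 12, 14365682 to 14502930) had the largest rise of the set. It stood at 92.8, 101, 89.4 and 104 CPM in siNTC5 replicates 1 to 4 and at 124, 126, 143 and 146 CPM in HNRNPK siRNA replicates 1 to 4. All 4 depleted libraries lay above all siNTC5 libraries. The log2 change was 0.47 ± 0.06 (SE; edgeR adjusted p 5.44e-07), 0.37 within TruSeq and 0.57 within Ligation. This call was not the same against the Scramble libraries, as given further on.

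TRIM28 (chromosome 19, 58544064 to 58550715), the corepressor that brings SETDB1 to KRAB zinc finger targets, stood at 826, 812, 781 and 776 CPM in siNTC5 replicates 1 to 4. In HNRNPK siRNA replicates 1 to 4 it was 817, 785, 866 and 902 CPM. The TruSeq values of the groups overlapped, and both Ligation values were higher after depletion. Over both kits the log2 change was 0.08 ± 0.05 (SE; edgeR adjusted p 0.144), and within the Ligation libraries alone it was 0.17 (adjusted p 0.00151). TRIM28 also passed with upper-quartile scaling (adjusted p 0.0250), at a mean of at least 50 counts (0.0323) and without siNTC5 replicate 1 (0.0490), which with Ligation alone makes 4 of 21 alternatives, whose highest adjusted p was 0.8003.

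The HP1 genes did not move as one. CBX3 (chromosome 7, 26201443 to 26213607) stood at 431, 431, 332 and 322 CPM in siNTC5 replicates 1 to 4 and at 483, 504, 414 and 389 CPM in HNRNPK siRNA replicates 1 to 4. The groups overlapped across kits, and within each kit both depleted libraries lay above both siNTC5 libraries. CBX3 rose by a log2 change of 0.25 ± 0.04 (SE; edgeR adjusted p 3.00e-05 with kit in the model). Without the kit term its adjusted p was 0.0885, the highest over 21 alternatives, whose lowest was 9.36e-10. Between kits, CBX3 was lower in Ligation by a log2 difference of -0.35 ± 0.04 (SE; edgeR adjusted p 1.53e-05).

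CBX5 (chromosome 12, 54230942 to 54280122) stood at 214, 220.0, 202 and 206 CPM in siNTC5 and at 236, 236, 238 and 228 CPM in HNRNPK siRNA libraries. The groups did not overlap, and the log2 change was 0.15 ± 0.04 (SE; edgeR adjusted p 0.00216). In the TruSeq libraries alone its adjusted p was 0.0685, the highest over 21 alternatives, whose lowest was 1.06e-05.

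CBX1 (chromosome 17, 48070059 to 48101478) stood at 244, 250.4, 239 and 229 CPM in siNTC5 and at 229.8, 226, 223 and 222 CPM in HNRNPK siRNA libraries. The lowest siNTC5 library lay below the highest depleted library. Its log2 change of -0.09 ± 0.04 (SE) passed narrowly (edgeR adjusted p 0.0451). The call was lost in 14 of 21 alternatives, among them the replicate block (adjusted p 0.0743), and passed with the opposite sign in 1 more, against the Scramble libraries. Over the alternatives the adjusted p ran from 0.00501 to 0.775. RefSeq lists 10 pseudogenes named after CBX3, 5 after CBX1 and 1 after CBX5. Only 1 of these, named after CBX3, is listed in the count tables. Reads that also match such a copy may make these HP1 counts less certain, which was not tested. CBX5 also overlaps MIR3198-2, RN7SL390P and SCAT2 in RefSeq.

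The neighbours of the HP1 genes moved in several ways. HNRNPA2B1, an RNA-binding protein and the neighbour of CBX3, rose from 1734 ± 67.0 to 2217 ± 87.5 CPM (mean ± SD of 4 libraries each), a log2 change of 0.35 ± 0.04 (SE; edgeR adjusted p 1.01e-07). HNRNPA1, which starts 604 bases from CBX5, fell while CBX5 rose: it went from 1809 ± 61.9 to 1594 ± 9.80 CPM (mean ± SD of 4 libraries each), a log2 change of -0.18 (adjusted p 0.000351). SNX11, 6096 bases from CBX1, had a log2 change of -0.10 and did not pass (adjusted p 0.190).

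The interaction of kit and treatment asked whether the knockdown effect on the members differed between library kits. In edgeR 0 of 9 members passed at an adjusted p under 0.05, where 0.129% of all tested genes passed. An unadjusted p under 0.05 was seen in edgeR for 3 members and for 1639 of all 13933 tested genes. In DESeq2 0 members passed, where 71 of 13933 genes did. There 2 members had an unadjusted p under 0.05, as did 873 genes. For SUV39H1 the interaction was -0.43 ± 0.14 (SE, log2, TruSeq minus Ligation, adjusted p 0.228), and for TRIM28 it was -0.22 ± 0.07 (adjusted p 0.217).

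The Scramble libraries asked how far the same members differ between nontargeting controls. In edgeR, 9 of 10 members passed between Scramble and siNTC5 (68.6% of 14263 tested genes), 3 higher (35.1% of all) and 6 lower (33.5%); 1 of the higher was EHMT2, for which no fold is given. SUV39H1 had 10.2 and 8.5 CPM in the Scramble libraries, below the lowest siNTC5 library at 18.2 CPM, and its log2 change was -1.62 ± 0.11 (SE; edgeR adjusted p 3.84e-08). CBX3 had 292 and 314 CPM in Scramble, also below every siNTC5 library, with a log2 change of -0.51 ± 0.06 (SE; edgeR adjusted p 4.36e-06). CBX5 (log2 change -0.28), CBX1 (-0.29), SUV39H2 (-0.50) and SETDB1 (-0.24) were lower too, with adjusted p from 0.000553 to 0.00903.

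ATF7IP was higher in Scramble, at 135 and 131 CPM, against at most 104 CPM in siNTC5, with a log2 change of 0.45 ± 0.07 (SE; edgeR adjusted p 0.000155). This is close to the 0.47 measured for HNRNPK siRNA against the same siNTC5 libraries, which serve as control in both comparisons. EHMT1 had 83.0 and 90.0 CPM in Scramble, overlapping siNTC5 (log2 change 0.25, adjusted p 0.0112); this call was lost in 4 of 13 alternatives, with an adjusted p from 0.000296 to 0.120. The SETDB1 call was lost without Scramble replicate 2 (0.0764) and the CBX3 call without the kit term (0.0613). TRIM28 did not pass (log2 change -0.08, adjusted p 0.202). The RNA purification kit, the depth and the count table all differ between Scramble and siNTC5 and cannot be told apart; whether the siRNA sequence differs too is not given in the labels.

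Set directly against the 2 Scramble libraries, the 2 TruSeq HNRNPK siRNA libraries differed for 8 of 10 members in edgeR, where 79% of 15080 tested genes passed; EHMT2 is 1 of the 8 and gets no fold. EHMT1 was lower, with a log2 change of -0.74 ± 0.07 (SE; edgeR adjusted p 1.32e-08), and CBX3 and CBX5 were higher, by 0.65 ± 0.05 (adjusted p 9.36e-10) and 0.34 ± 0.05 (adjusted p 1.06e-05). For these 3 genes the sign was that seen against siNTC5. The TruSeq HNRNPK siRNA libraries serve in both comparisons, so these are not independent. Scramble itself differed from siNTC5 in the opposite direction (EHMT1 0.25, CBX3 -0.51, CBX5 -0.28), and that offset enters the changes against Scramble. ATF7IP changed sign to -0.14 ± 0.05 (adjusted p 0.0254), and CBX1 changed sign to 0.12 ± 0.05 (adjusted p 0.0389). SUV39H2 had a log2 change of 0.04 (adjusted p 0.715). SUV39H1 was higher after depletion by 1.41 ± 0.12 (adjusted p 3.84e-09), and SETDB1 by 0.21 (adjusted p 0.00584). TRIM28 had a log2 change of -0.01 (adjusted p 0.8003). With the Scramble libraries added to siNTC5 as controls, 3 of 9 members passed, EHMT1, CBX3 and CBX5. In that fit 6965 of all 13460 tested genes passed.

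**Figure D3:**
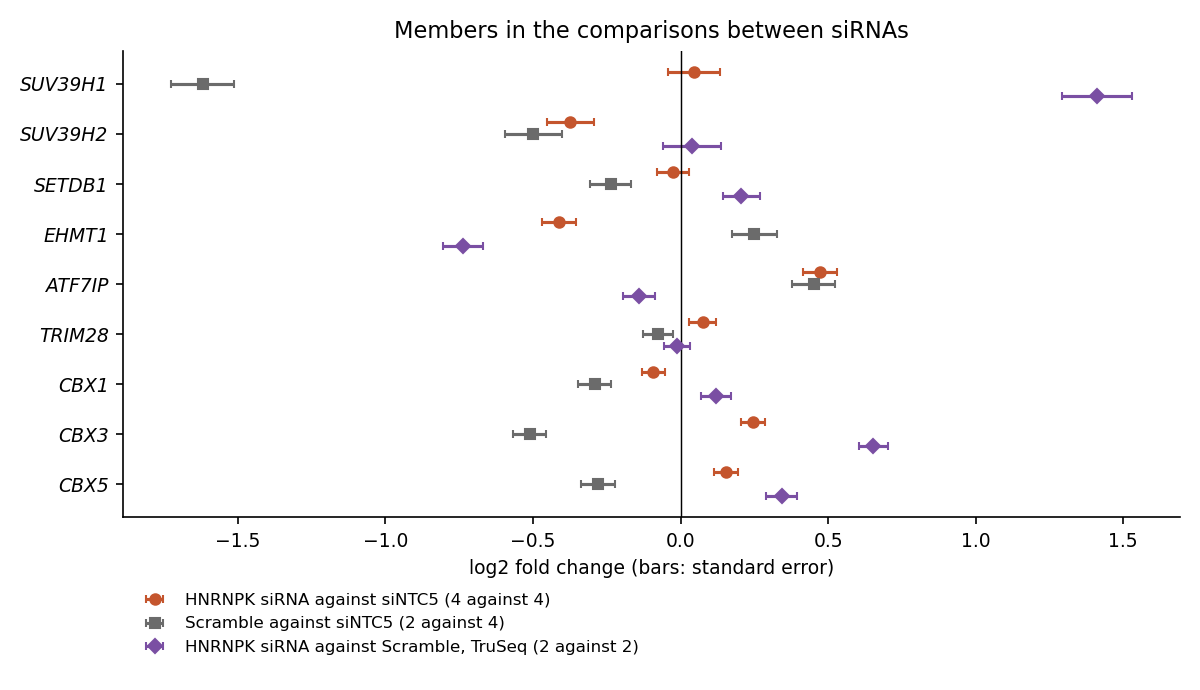
Log2 change with its standard error for the 9 tested members, from HNRNPK siRNA against siNTC5 (circles), Scramble against siNTC5 (squares) and TruSeq HNRNPK siRNA against Scramble (diamonds). EHMT1 lies below 0 and CBX3 and CBX5 above 0 against either control, while ATF7IP stands at 0.47 against siNTC5 and -0.14 against Scramble. The squares of EHMT1, CBX3 and CBX5 lie on the opposite side of 0.

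The wider H3K9 machinery was described with lists of genes for the same pathway. Of 12 other methyltransferases and cofactors, 4 rose and 5 fell, with a median log2 change of -0.08. A list of 5 genes held the HUSH complex, which spreads H3K9me3 with SETDB1, its partner MORC2, and TASOR2, which is not a HUSH subunit. Of these, 3 rose (TASOR2, PPHLN1 and MORC2) and 1 fell (TASOR). Of 13 HP1-associated proteins, 3 rose and 6 fell, and of 11 H3K9 demethylases, 5 rose and 4 fell. Together 31 of 41 passed in edgeR, 15 higher and 16 lower, near the background of 71.5%. With the Scramble libraries added as controls 19 of 39 passed, where 6965 of all 13460 tested genes passed. DAXX, a histone chaperone counted among the 13 as not passing, lies within 2 Mb of EHMT2 and had 0.496 to 1.86 CPM in the 8 libraries against 91.2 and 91.96 CPM in Scramble, so no statement on its expression is made either.

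Of these genes, 5 passed with a log2 change of at least 0.8 in size, as did 22.5% of all tested genes. PRDM2, a PR-domain methyltransferase of H3K9, rose from 28.8 ± 2.05 to 62.5 ± 5.64 CPM (mean ± SD of 4 libraries each), a log2 change of 1.11 ± 0.07 (SE; edgeR adjusted p 1.18e-10). TASOR2, a paralogue of the HUSH subunit TASOR, rose from 208 ± 35.3 to 366 ± 11.0 CPM (log2 change 0.83), and TASOR itself fell by 0.36 on the log2 scale. Neither symbol is listed in the Scramble libraries, so TASOR2 and TASOR could not be set against Scramble and are missing from the 39 genes above.

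The demethylases moved apart. KDM4A, which removes methyl groups from H3K9me3 and H3K36me3, rose from 94.98 ± 12.2 to 174 ± 11.0 CPM (mean ± SD of 4 libraries each; log2 change 0.88 ± 0.05 SE, adjusted p 1.12e-11), and JMJD1C, of the KDM3 family, rose from 140 ± 8.45 to 251 ± 11.3 CPM (log2 change 0.85). KDM4B, a paralogue of KDM4A with the same substrates, fell by 2.02 on the log2 scale. Against siNTC5 the Scramble libraries differed for the KDM4 genes as well, and there both were higher, with log2 changes of 0.95 for KDM4A (adjusted p 3.07e-08 in edgeR) and 0.93 for KDM4B (adjusted p 0.000257). PRDM2 was lower in Scramble, with a log2 change of -0.65. Between the TruSeq HNRNPK siRNA and the Scramble libraries KDM4A did not pass (log2 change -0.05, adjusted p 0.461), while KDM4B (-2.89), JMJD1C (0.56) and PRDM2 (1.85) passed with the sign seen against siNTC5.

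**Figure D4:**
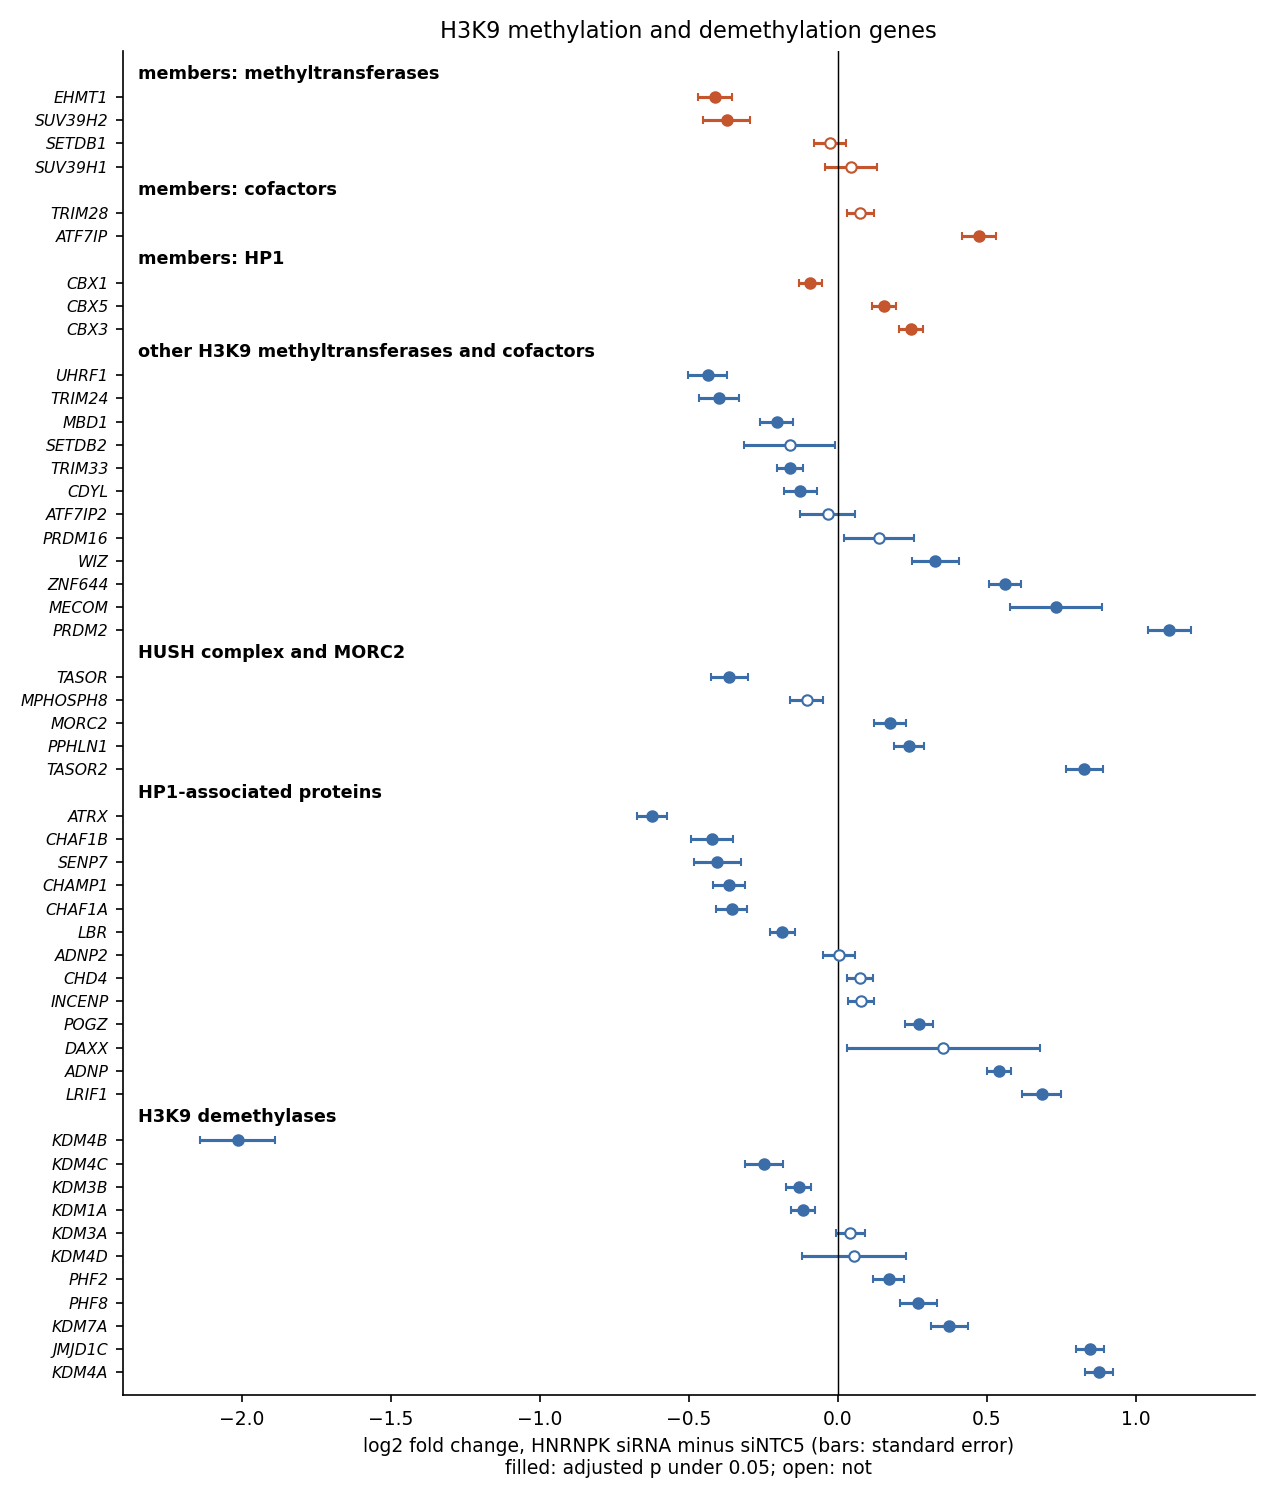
Log2 change of HNRNPK siRNA against siNTC5 with its standard error for each tested gene of the H3K9 lists, members in orange and other genes in blue; filled points passed an adjusted p of 0.05. Members lie between -0.41 and 0.47, KDM4B lies lowest at -2.02 and PRDM2 highest at 1.11.

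The H3K9me3 domain lists give the mark these enzymes make, with 3 ChIP libraries but 1 deposited list per condition, so the lists have no replicate; how the 3 libraries were combined is not given in the sources used here. Control cells had 895 domains over 657.2 Mb and depleted cells 1996 domains over 794.4 Mb, a length ratio of 1.209. The median domain was 160 kb long in the control list and 105 kb in the knockdown list. The 1111 knockdown domains that touch no control domain were short and of low score, with a median length of 80 kb and a median score of 0.596, against 230 kb and 1.068 for the 885 others. Any overlap counted as touching, which a longer domain meets more easily, so part of the length contrast can follow from the split itself. Control lamin B1 domains covered 14.5% of the length of the former and 81.7% of the latter. The score is the authors' own value per domain and its unit is not given.

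The direction of the length ratio depends on the score kept. With both lists held to scores of at least 0.6 the ratio was 1.146, at 1 it was 1.037, at 1.5 it was 0.92 (330.9 against 359.8 Mb) and at 2 it was 0.686 (104.7 against 152.5 Mb). Scores of separate lists may not share a scale. Among the transcripts of the enzymes that make H3K9me3, SUV39H2 fell against siNTC5 and SUV39H1 and SETDB1 did not pass. Against Scramble SUV39H1 (1.41) and SETDB1 (0.21) were higher and SUV39H2 (0.04) did not pass, so all 3 calls differed between the comparisons. The comparisons also differ in RNA purification kit, depth, count table and number of libraries, which cannot be told apart from the control. Domain length and transcript level came from different libraries, so no value links them.

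**Figure D5:**
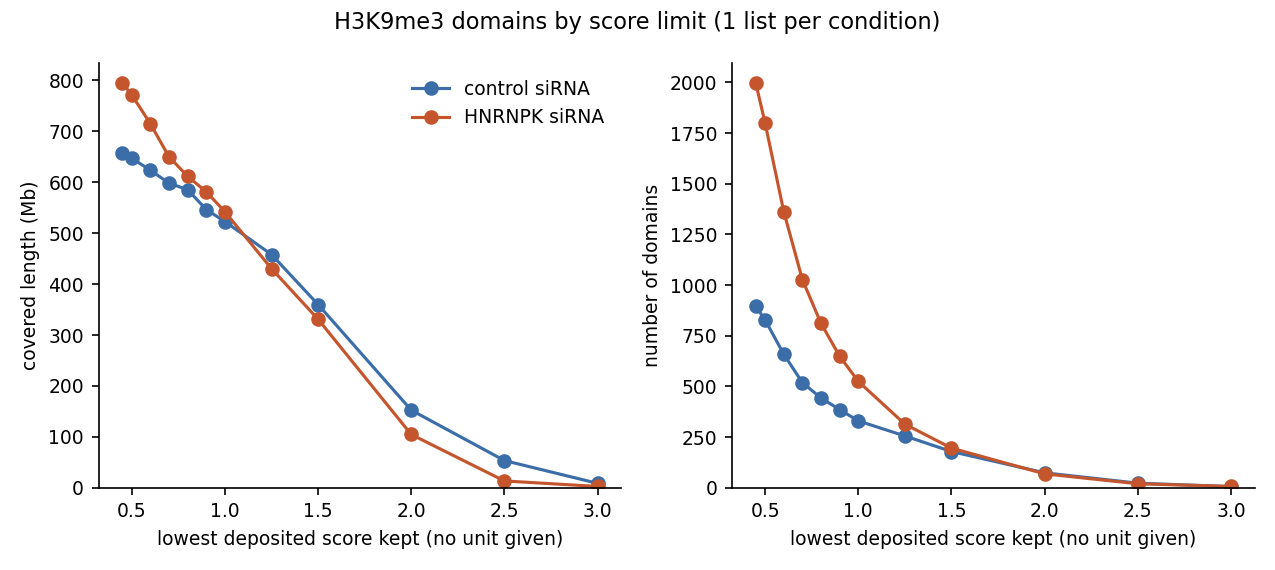
Covered length in Mb (left) and number (right) of H3K9me3 domains in control and HNRNPK siRNA cells, against the lowest deposited domain score kept. Without a limit the knockdown list is longer, 794.4 against 657.2 Mb, and at a score of 1.5 it is the shorter, 330.9 against 359.8 Mb.

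Of the members' own gene bodies, ATF7IP lay in H3K9me3. Its whole body was covered by the control domain chr12:14195001-14505000 (score 1.505, above 80.0% of the list) and by the knockdown domain chr12:14195001-14640000 (score 1.595, above 92.2% of the list). The ATF7IP transcript was nonetheless present at 89.4 CPM or more in every library. EHMT1 had 7.4% of its body, at its downstream end, in a knockdown domain, chr9:137820001-137980000 (score 0.745), and none in a control domain. The other 8 members touched no H3K9me3 domain in either list. Among tested genes with a RefSeq position, 4.3% touched a control and 9.6% a knockdown H3K9me3 domain, and 2.9% and 5.9% had at least 50% of the body in one. None of the 10 members touched a lamin B1 domain in either list or an H3K9me2 domain in the control list, and an H3K27me3 domain covered 2.8% of EHMT1 in control cells.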

How the data were processed

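The members and gene lists were chosen with earlier results of these data known. Counts per gene were deposited by the authors as unnormalised whole numbers; the submitters' processing notes name STAR 2.7.1a, featureCounts and Subread 2.0.6, with hg38 (hg19 and hg38 for Scramble). The deposited domain score has no unit in the sources used here, and the domain caller is not given in the sources used here. For ChIP the notes name Bowtie2 2.5.1, fastp 0.23.2 and deepTools 3.1.3.

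Counts were fitted with edgeR 4.0.16 (R 4.3.3; TMM scaling, filterByExpr, quasi-likelihood test with kit and treatment; Benjamini-Hochberg adjustment over all tested genes; call at 0.05). CPM are TMM-scaled. The standard error is the log2 change over the root of F. The script was tested on simulated data. DESeq2 1.42.0, other scalings, filters, controls and left-out libraries were alternatives. All members were named, with list genes past an absolute log2 change of 0.8.

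Deviations of same-numbered libraries from their group mean correlated at 0.15, 0.53, 0.44 and 0.36; the numbers coincide with kit, and within kit the values were 0.07 and 0.02. No exon lengths were used, so levels were not compared between genes. Domain coordinates are printed 1-based in hg38. Gene positions and promoters come from RefSeq GRCh38.p14; TRIM28 had no promoter entry.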

Additional observations from a re-analysis of the deposited data

Results flagged for a closer look

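The effect of HNRNPK siRNA on SUV39H1 differed in sign between library kits. Both TruSeq libraries of depleted cells lay below both TruSeq siNTC5 libraries, and both Ligation libraries lay above theirs. The TruSeq effect minus the Ligation effect was -0.43 on the log2 scale (SE 0.14, unadjusted p 0.00643, adjusted p 0.228 in edgeR), so the difference did not pass the correction over all genes. SUV39H1 also differed between kits within siNTC5, and the part of the kit in the result was not tested further.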

How the results depend on the processing

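HNRNPK siRNA against siNTC5 called 6 members. The count was 3 with the Scramble libraries added as controls, where 6965 of 13460 tested genes passed. Without the kit term it was 4 (8719 of 13933 genes), and in TruSeq alone it was 4 (8186 of 14171). Ligation alone gave 7 (9529 of 13999), and Scramble as the only control gave 8 with EHMT2 (11915 of 15080). The count was 0 at a log2 change of at least 1 in size, where 2195 of all genes passed. Leaving out 1 library gave 5 to 7. With the replicate block in place of kit 5 members and 9872 genes passed, and CBX1 was the call lost. The ATF7IP and SUV39H2 calls were lost with Scramble added (adjusted p 0.106 and 0.123). The H3K9me3 length ratio was 1.0503 at scores from the control median, 1.1035 in the upper part of each list, and, chosen after seeing the data, 0.9198 at scores of at least 1.5 and 0.6863 at 2. The cause was not tested in any of these.

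Signs turned as follows. Against Scramble alone SUV39H2 had 0.04, SETDB1 0.2066, ATF7IP -0.1393, TRIM28 -0.0121 and CBX1 0.1209. In TruSeq alone SUV39H1 had -0.1459, SETDB1 0.0319 and TRIM28 -0.0252. Leaving out 1 library moved SUV39H1 between -0.0213 and 0.0929 (below 0 without replicate 4 of either group) and SETDB1 between -0.0604 and 0.0133 (above 0 without siNTC5 replicate 4 or HNRNPK siRNA replicate 3). SETDB1 had 0.008 with upper-quartile scaling, 0.005 at a mean of at least 50 counts and 0.0382 with Scramble added. In the kit interaction, leaving out 1 library moved SUV39H2 between -0.1746 and 0.0706, EHMT1 between -0.103 and 0.0582 and CBX1 between -0.0575 and 0.005, and EHMT1 had 0.0022 with upper-quartile scaling. The depth of 12107280 counts or more limits SUV39H1 and SUV39H2 most among tested members, since their counts were the lowest.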

Other observations

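Among 41 other genes of the H3K9 lists, 2 had at least 50% of the body in control H3K9me3 domains and 5 in knockdown domains, where 2.9% and 5.9% of all tested genes with a position did; these genes were looked at after the values were seen. TRIM24, a reader of histone H3, had 0% of its body in control and 77.1% in knockdown domains, and its transcript fell by 0.40 on the log2 scale (SE 0.07). SENP7, a SUMO protease that binds HP1, went from 0% to 55.6%, and its transcript also fell by 0.40 (SE 0.08). CDYL, a chromodomain protein, went from 26.1% to 60.1%, with a log2 change of -0.13 (SE 0.06). MORC2 went from 54.5% to 65.9%, and its transcript rose by 0.17 (SE 0.05). ATF7IP2 went from 96.3% to 100%, with a log2 change of -0.03 (SE 0.09) that did not pass. LRIF1, an HP1-binding protein with less than 50% of its body covered, went from 10.0% to 38.1%, and its transcript rose by 0.68 (SE 0.07). H3K27me3 domains covered 100% of LRIF1 in both conditions. Also below 50%, KDM3A went from 0% to 23.3%, with a log2 change of 0.04 that did not pass. KDM1A went from 0% to 16.4% (log2 change -0.12) and PHF2 from 0% to 4.5% (0.17). These changes are against siNTC5. Against Scramble TRIM24 (-0.16, edgeR adjusted p 0.109), SENP7 (-0.12, adjusted p 0.320) and LRIF1 (0.004, adjusted p 0.956) did not pass, CDYL was lower (-0.33, adjusted p 0.000199) and MORC2 was higher (0.29, adjusted p 0.000831). ATF7IP2, KDM1A, KDM3A and PHF2 did not pass in that comparison.

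HNRNPA1 stood at 88.0 and 94.0 CPM in Scramble (log2 change of -4.30 against siNTC5), while its neighbour CBX5 had -0.28. The cause was not tested.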
